A study of Mus musculus with 12 samples.

Results

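The genes described here encode the MHC class II antigen presentation pathway: the class II chains H2-Aa, H2-Ab1 and H2-Eb1, the invariant chain Cd74, the peptide exchange proteins H2-DMa and H2-DMb1, the transactivator Ciita, and the costimulators Cd86 and Cd80. They were chosen by gene name, with earlier results of these data known. All 9 were found among the 32285 genes of the retina count table and among the 55401 genes of the pericyte count table. The 12 libraries were wild-type mouse samples in 4 groups of 3. In 2 groups, labelled retina cells, retinas were taken on day 1 after optic nerve crush (ONC) with phosphate-buffered saline (ONC+PBS), or after crush with i.o. small extracellular vesicles of mesenchymal stem cells (ONC+i.o.MSC.sEV), so both groups carried the injury and no uninjured group was used. In the other 2, labelled brain microvascular pericytes (P4), cells had been treated with PBS or with MSC.sEV for 12 hours. The labels do not spell out i.o. or P4, and do not give the animals' age, the source of the vesicles beyond the stem cell type, or a vehicle route for PBS.

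Class II molecules carry peptides from the endosomal route to the cell surface, where CD4 T cells read them. An alpha and a beta chain assemble with the invariant chain, which blocks the groove and steers the complex to endosomes. Cathepsins then trim the invariant chain, and H2-DM exchanges the last fragment for an antigen peptide. Transcription of these genes depends on Ciita, which is recruited by factors bound to the X and Y boxes of their promoters, and interferon-gamma switches Ciita on through Irf1 and other signalling proteins in many cells that do not otherwise express it. Dendritic cells, B cells and activated macrophages are the usual carriers, while the healthy retina holds few class II cells. Cd86 and Cd80 give T cells a second signal through Cd28, and Ctla4 competes for both.

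Promoter sequences are shown because the X and Y boxes are the feature by which class II genes are known to be switched on together. RefSeq windows (GRCm38.p6) were matched for 5 of the 9 genes, H2-Aa, H2-Eb1, H2-DMa, H2-DMb1 and Cd80, and not for H2-Ab1, Cd74, Ciita and Cd86. The last 130 bases before the annotated start are printed for 3 of them, 5′ to 3′ on the gene's strand. Capitals mark the letters TGATTGG, a core of the Y box, and AACNNATG, letters in the X box region, both searched on both strands. These letters were picked after looking at these promoters. The windows are chr17:34287824-34287953 on the minus strand for H2-Aa, chr17:34305737-34305866 on the plus strand for H2-Eb1 and chr17:34153061-34153190 on the plus strand for H2-DMb1.

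H2-Aa: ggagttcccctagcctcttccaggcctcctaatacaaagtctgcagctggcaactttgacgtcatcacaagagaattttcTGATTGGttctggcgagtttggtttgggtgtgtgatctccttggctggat

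H2-Eb1: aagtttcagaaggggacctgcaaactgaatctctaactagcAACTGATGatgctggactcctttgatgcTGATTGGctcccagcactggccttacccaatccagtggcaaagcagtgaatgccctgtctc

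H2-DMb1: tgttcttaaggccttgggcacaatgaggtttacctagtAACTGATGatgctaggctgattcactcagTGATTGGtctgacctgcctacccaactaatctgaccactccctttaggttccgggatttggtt

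The Y letters began 50 bases before the start in H2-Aa, 61 in H2-Eb1 and 63 in H2-DMb1. The X letters began 28 bases ahead of them in H2-Eb1 and 29 in H2-DMb1, and these exact letters were not in the H2-Aa window. Neither motif was in the windows of Cd80 or of H2-DMa, which has 2 annotated starts. The search took exact letters only, so a missing match does not show that a promoter lacks an X or Y box. Of 32851 mouse promoter windows of 250 bases, 7.23% held the Y letters and 7.71% the X letters. Both in this order, with 20 to 35 bases between their first letters, were in 13 windows (0.0396%), and 5 of these 13 belonged to class II genes: H2-Eb1, H2-DMb1, H2-Eb2, H2-DMb2 and H2-Ob. Because the letters came from this family, that count describes the windows and tests nothing.

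Some facts of the tables bear on every value. Retina libraries held 15580024 to 16842926 counts in total and pericyte-labelled libraries 33001248 to 37954077. The retina columns carry only the short names CTR and M, which were read as the PBS and vesicle groups, so each retina direction rests on that reading, and if CTR were uninjured retina the difference would include the crush. Library numbers in the retina are column numbers. Lens crystallins, from tissue next to the retina, took 0.684% of counts in PBS library 1 and 7.05% in vesicle library 2, the most in their groups, and 0.0631% and 0.0115% in the lowest libraries. All 12 listed genes of retinal neurons and glia passed the low-count filter in the retina table. The pericyte-labelled cells held the mural genes Pdgfrb at 59.7 CPM (counts scaled by library size) and Acta2 at 572 CPM with PBS. Cspg4, Notch3, Anpep, Mcam and Vtn also reached the cutoff of the low-count filter in every library, and 8 of 12 listed mural genes were tested. But Rgs5 was at 0.283 CPM, Abcc9, Des and Higd1b were at 0 counts with PBS, and the astrocyte genes Aqp4 and Gfap stood at 477 and 214 CPM. The cells are therefore called pericyte-labelled. Separate animals or cultures are named for no group, so p-values measure only the spread between these libraries, which may be technical.

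In the crushed retina, all 9 genes were higher with vesicles than with PBS in the test of every gene in the table, and in none of them did the groups overlap, against 35.7% of all genes tested without overlap. The class II chains and Cd74 rose 6.58-fold to 13.4-fold, Cd80 rose 10.9-fold and Ciita 5.65-fold, whereas H2-DMa, H2-DMb1 and Cd86 rose 1.93-fold to 3.17-fold. Calls come from edgeR's quasi-likelihood test with Benjamini-Hochberg adjustment over 15440 genes at 0.05. Over all of these, 15.9% were called, 10.7% higher and 5.19% lower, and in 19.5% every vesicle library was above every PBS library. The median log2 fold change was 2.72 over the 9 genes and -0.02 over all genes tested. Because the 9 were chosen with earlier results of these data known, their contrast with all genes is a description and tests nothing. Ciita passed the low-count filter through its vesicle libraries alone, so it could only be tested because it was high there. Its call, lack of overlap and fold change add no support to the counts and median of the 9. In bulk tissue, more cells that carry a transcript and more of the transcript per cell cannot be told apart.

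H2-Aa encodes the alpha chain of I-A, a class II molecule of mice. Its level was 4.37, 2.73 and 4.68 CPM in the PBS libraries and 57.5, 58.5 and 42.0 CPM in the vesicle libraries. Every vesicle library was far above every PBS library, and the means were 3.93 ± 1.05 and 52.7 ± 9.27 CPM (SD, n = 3 each). The log2 fold change was 3.74 ± 0.22 (SE), with an edgeR adjusted p of 5.08e-05, the largest change among the 9 genes in this fit.

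H2-Ab1, the beta chain that pairs with H2-Aa, was at 2.09, 1.82 and 4.32 CPM with PBS and at 18.3, 20.2 and 15.8 CPM with vesicles. PBS library 3 was the high one of its group and still lay below the lowest vesicle library. The means were 2.74 ± 1.37 and 18.1 ± 2.19 CPM (SD, n = 3 each), a log2 fold change of 2.72 ± 0.31 (SE) with an edgeR adjusted p of 0.00073. H2-Eb1, the beta chain of I-E, was at 3.20, 2.07 and 2.88 CPM with PBS and at 19.4, 20.4 and 15.0 CPM with vesicles. The 3 PBS libraries lay close together and well below the vesicle libraries. Its log2 fold change was 2.75 ± 0.22 (SE), with an edgeR adjusted p of 0.00012. H2-Ea, the gene of the I-E alpha chain, was not among the genes of the retina table, so its level there is not known. In the pericyte-labelled libraries H2-Ea had 1 count summed over PBS and 0 over vesicles.

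Cd74, the invariant chain, is also the surface receptor of the cytokine Mif. It was at 6.39, 2.86 and 7.80 CPM with PBS and at 39.4, 47.1 and 29.5 CPM with vesicles. Its PBS libraries were more spread than those of H2-Eb1, and PBS library 2 was the lowest. The means were 5.68 ± 2.55 and 38.7 ± 8.81 CPM (SD, n = 3 each), and the log2 fold change was 2.77 ± 0.37 (SE), with an edgeR adjusted p of 0.0044. Without the library richest in lens crystallins in each group the log2 fold change was 2.70 and the adjusted p 0.065.

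Ciita, the transactivator that sets the level of the genes above, was the scarcest of the 9. It had 4, 3 and 4 counts in the PBS libraries and 19, 23 and 21 with vesicles, or 0.228 ± 0.0407 and 1.32 ± 0.123 CPM (SD, n = 3 each). The libraries within each group were nearly equal and the groups lay apart. The log2 fold change was 2.50 ± 0.44 (SE), with an edgeR adjusted p of 0.0048. Dexi, on the opposite strand, overlaps 3.45% of the Ciita exon bases in GENCODE M21, and whether counting used strand is not known from the sources used here.

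H2-DMa and H2-DMb1 form H2-DM, the peptide editor of the endosome. H2-DMa was at 2.61, 1.82 and 2.04 CPM with PBS and at 4.20, 4.55 and 3.76 CPM with vesicles. The groups did not overlap but lay close, with a log2 fold change of 0.95 ± 0.27 (SE) and an edgeR adjusted p of 0.042. H2-DMb1 was at 1.17, 0.850 and 1.92 CPM with PBS and at 3.44, 5.81 and 3.33 CPM with vesicles. Vesicle library 2 was the high one there, and the log2 fold change was 1.66 ± 0.39 (SE), with an edgeR adjusted p of 0.0178. Both calls were among those lost when 1 library was left out. For H2-DMa this was so when PBS library 2, PBS library 3, vesicle library 1 or vesicle library 2 was dropped (adjusted p up to 0.158). For H2-DMb1 it was so on dropping PBS library 1, PBS library 2 or vesicle library 2 (adjusted p up to 0.076). Brd2, on the opposite strand, overlaps 10.4% of the H2-DMa exon bases, and 11.3% of the 100-base stretches of H2-DMb1 also occur in H2-DMb2, so reads of these genes are uncertain there.

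The 2 costimulators differed in size of change. Cd80 was at 0.652, 0.668 and 0.720 CPM with PBS and at 8.21, 8.78 and 5.61 CPM with vesicles. Its PBS libraries were almost equal, and the log2 fold change was 3.45 ± 0.30 (SE), with an edgeR adjusted p of 0.00015. Cd86, the other ligand of Cd28 and Ctla4, was at 1.69 CPM in PBS library 1, 0.668 in PBS library 2 and 1.62 in PBS library 3, against 3.50, 3.92 and 3.02 CPM with vesicles. PBS library 2 was low, and the log2 fold change was 1.39 ± 0.38 (SE) with an edgeR adjusted p of 0.035. The Cd86 call was lost on dropping PBS library 2, PBS library 3, vesicle library 1 or vesicle library 2, with an adjusted p up to 0.114.

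Without the library richest in lens crystallins in each group, 5 of the 9 genes were called. They were H2-Aa, H2-Ab1, H2-Eb1, Cd80 and Ciita, whose call adds no support because it was tested only through its vesicle libraries. That fit has 2 libraries a group and called 1420 genes instead of 2449. The 4 others kept their direction, at 2.70 for Cd74, 1.05 for H2-DMa, 1.30 for H2-DMb1 and 1.52 for Cd86 on the log2 scale, with adjusted p of 0.065, 0.095, 0.132 and 0.104. With crystallin genes removed from the totals all 9 were called.

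**Figure D1:**
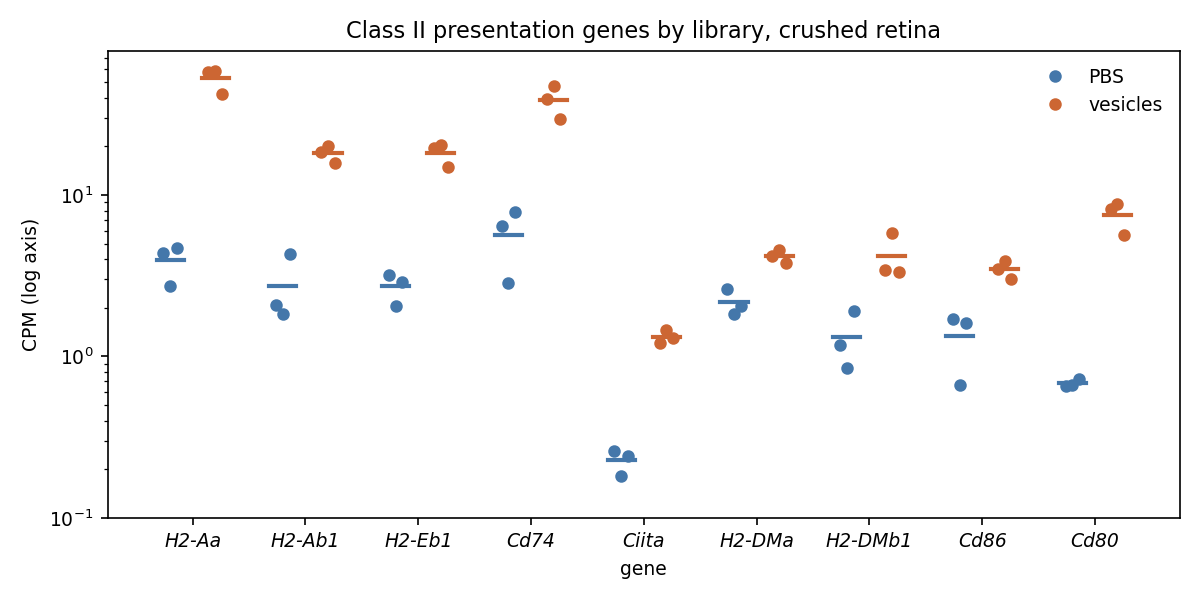
Level of the 9 genes in each crushed-retina library, in CPM on a log axis, with PBS in blue and vesicles in orange; points are libraries and bars are means of 3. For every gene all vesicle points lie above all PBS points, by the widest distance for H2-Aa and Cd80 and the narrowest for H2-DMa.

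Levels of different genes were compared per kilobase of exon (GENCODE M21 exon union). With PBS the order of CPM per kilobase was Cd74 at 3.38, H2-Eb1 at 1.40, H2-Ab1 at 1.07, H2-Aa at 1.03, H2-DMb1 at 0.782, H2-DMa at 0.625, Cd86 at 0.363, Cd80 at 0.184 and Ciita at 0.0239. From H2-Eb1 to H2-DMa each neighbour overlapped the next, and so did Cd86 and Cd80. With vesicles the order was Cd74 at 23.0, H2-Aa at 13.9, H2-Eb1 at 9.39, H2-Ab1 at 7.06, H2-DMb1 at 2.49, Cd80 at 2.03, H2-DMa at 1.21, Cd86 at 0.950 and Ciita at 0.138. There H2-Eb1 overlapped H2-Ab1 and H2-DMb1 overlapped Cd80, and the other neighbours lay apart. H2-Aa made up 11.7% of the summed CPM per kilobase of the 9 genes with PBS and 23.0% with vesicles, while the share of Cd74 was 38.2% and 38.3% and that of H2-DMa 7.06% and 2.01%.

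The 9 genes were also set against Ptprc, the leukocyte surface phosphatase CD45, which rose from 2.55 ± 0.601 to 32.3 ± 6.73 CPM (SD, n = 3 each; log2 fold change 3.66 ± 0.23). An exact permutation test, 2-sided, was run on 11 log2 ratios, and with 3 against 3 libraries its smallest p is 0.1, so none can pass 0.05. The ratio of H2-Aa to Ptprc was 1.37, 1.36 and 1.90 with PBS and 1.60, 1.61 and 1.71 with vesicles. These groups overlapped, with a log2 difference of 0.10 (exact permutation p = 0.6, adjusted 0.6). The ratio of Cd80 to Ptprc overlapped too, with a log2 difference of -0.22 (exact permutation p = 0.4, adjusted 0.44). The ratios of the other 7 genes to Ptprc were lower in every vesicle library than in every PBS library (exact permutation p = 0.1, adjusted 0.122 for each). Because Ptprc itself rose, the same held for 96.2% of the 15439 other genes tested, so a lower ratio to Ptprc is what most genes showed and says nothing particular to these 7. Their log2 differences were -0.84 for H2-Ab1, -0.90 for H2-Eb1, -0.80 for Cd74, -1.12 for Ciita, -2.70 for H2-DMa, -1.96 for H2-DMb1 and -2.17 for Cd86.

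Between members, the ratio of H2-Aa to Cd74 was 0.684, 0.957 and 0.600 with PBS and 1.46, 1.24 and 1.42 with vesicles. This ratio of counts, which is not per length, was higher in every vesicle library than in every PBS library (log2 difference 0.91, exact permutation p = 0.1, adjusted 0.122). The ratio of Cd86 to Cd80 was 2.60, 1.00 and 2.25 with PBS and 0.426, 0.446 and 0.538 with vesicles. Cd86 counts equalled or exceeded Cd80 counts in each PBS library and were lower in each vesicle library (log2 difference -1.95, exact permutation p = 0.1, adjusted 0.122).

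**Figure D2:**
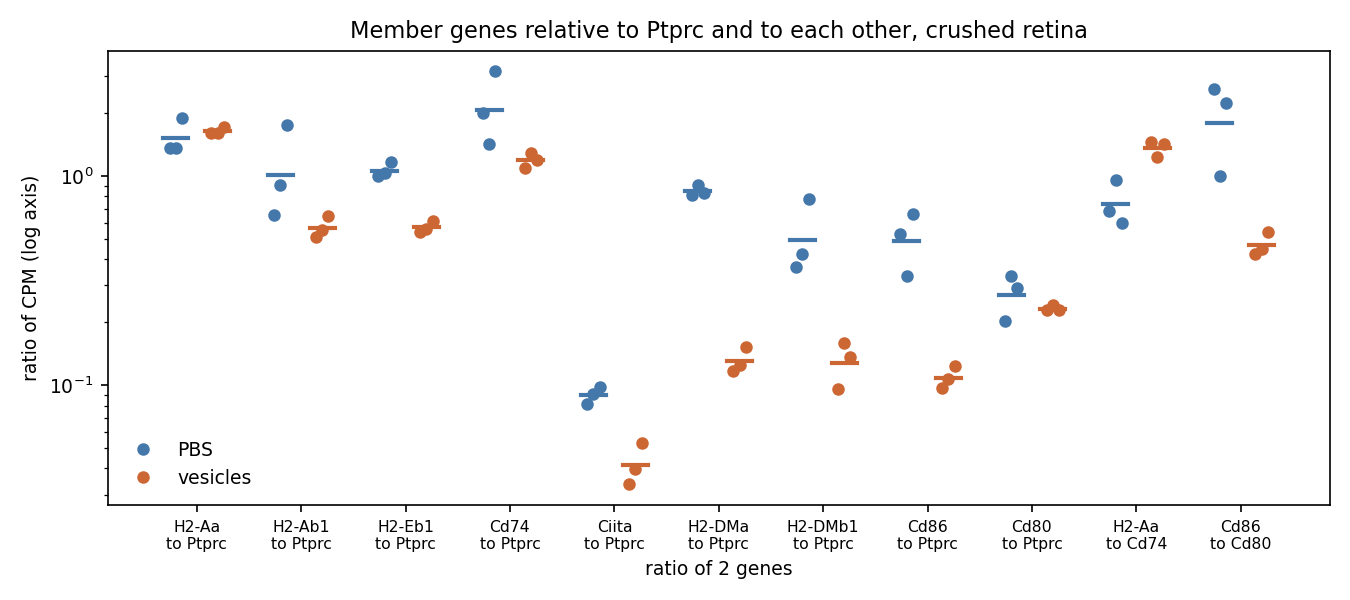
Ratio of each gene to Ptprc, of H2-Aa to Cd74 and of Cd86 to Cd80 in each crushed-retina library, on a log axis; points are libraries and bars are geometric means of 3. The H2-Aa and Cd80 ratios to Ptprc overlap between PBS and vesicles, the ratio of H2-Aa to Cd74 is higher with vesicles, and all other ratios are lower.

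Counts of cell marker genes are given beside these values. All 10 myeloid markers were called higher in the retina, 7 of 10 without the library richest in lens crystallins in each group. Among the 10, Ly6c2 passed the low-count filter through its vesicle libraries alone, so its call adds no support to that count. The summed level of the 10 ran from 62.4 to 100 CPM with PBS and from 763 to 1087 CPM with vesicles. Of 12 genes of retinal neurons and glia, all tested, 0 were called higher and 7 lower. Of 12 dendritic cell genes, 8 were tested and 4 were called higher. Itgax, the CD11c integrin, had 5, 5 and 13 counts in the PBS libraries and 108, 108 and 80 with vesicles. Cd209a, a lectin of monocyte-derived dendritic cells, had 0, 0 and 6 counts in the PBS libraries and then 90, 87 and 59, and the other 2 were the transcription factor Irf8 and the chemokine Ccl22. Itgax, Cd209a and Ccl22 passed the low-count filter through their vesicle libraries alone, so their calls add no support to that count. Flt3 and Zbtb46, which mark conventional dendritic cells, had log2 fold changes of -0.07 ± 0.38 and 0.17 ± 0.24 (SE), with edgeR adjusted p of 0.92 and 0.68. Irf4 was not called either (edgeR adjusted p = 0.38). The untested genes of the list went both ways. Clec9a, Ccr7 and Batf3 had 1, 10 and 13 counts summed over PBS and 13, 30 and 26 over vesicles. Xcr1 had 24 and 12. The summed level of the dendritic list ran from 33.1 to 65.7 CPM with PBS and from 69.0 to 1013 CPM with vesicles. Most of this sum was Cd24a, which many other cells also express, at 57.2, 25.1 and 29.6 CPM in the PBS libraries and 245, 977 and 39.4 CPM in the vesicle libraries. It was highest in vesicle library 2, the one richest in lens crystallins, and was not called (3.49 ± 1.35, edgeR adjusted p = 0.18). Without Cd24a the other 11 genes summed to between 8.02 and 11.4 CPM with PBS and between 29.7 and 40.1 CPM with vesicles. None of 7 B cell genes passed the filter in the retina, and their summed level was 0.420 to 0.717 CPM with PBS and 0.505 to 1.15 CPM with vesicles. Of 8 homeostatic microglia genes 1 was called higher and 4 lower, of which Siglech and Gpr34 passed the filter through their PBS libraries alone, and their summed level ran from 74.8 to 77.7 CPM with PBS and from 50.1 to 51.1 CPM with vesicles. The part of these cells in the rise of the 9 genes was not tested.

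Other genes of the class II pathway were read from lists by role. Of 10 proteases and endosomal processing genes, 7 were called higher and 0 lower, with a median log2 fold change of 0.64 over the 10. The 4 with the smallest p were the cathepsins Ctsz (0.76 ± 0.13, edgeR adjusted p = 0.0046), Ctsh (0.75 ± 0.14, 0.0065) and Ctss (0.72 ± 0.16, 0.014), and Ifi30 (0.81 ± 0.17, 0.011), the thiol reductase of endosomes. Ctss, which completes invariant chain cleavage in most antigen-presenting cells, went from 51.8 ± 7.71 to 85.3 ± 16.3 CPM (SD, n = 3 each). The count of these genes called higher ran from 3 to 9 when single libraries were left out, 3 on dropping PBS library 2 or vesicle library 1, and 4 without PBS library 3 or without the library richest in lens crystallins in each group. The protease Lgmn was not called (-0.31 ± 0.10, edgeR adjusted p = 0.054), and was called lower without PBS library 3 (edgeR adjusted p = 0.048), with upper-quartile scaling (edgeR adjusted p = 0.028) and by DESeq2 (adjusted p = 0.027). Among the 7 promoter factors only Creb1, which binds the X2 box, was called (0.51 ± 0.14, edgeR adjusted p = 0.032), and the median log2 fold change was 0.03. That call was lost on dropping PBS library 2, PBS library 3, vesicle library 1 or vesicle library 2, with an adjusted p up to 0.131. No gene of 3 that govern class II or Cd86 turnover was called by edgeR in the retina: Cd83 had a log2 fold change of 0.14 ± 0.13, March1 0.11 ± 0.12 and March8 -0.14 ± 0.10, with adjusted p of 0.50, 0.54 and 0.39. At an unadjusted p under 0.05 the count was 0 as well, and DESeq2 called 0 of the 3. Of the other class II genes, H2-DMb2, a second H2-DM beta chain, had 0, 1 and 0 counts in the PBS libraries and 12, 24 and 13 with vesicles, a ratio of 49.7 with a 95% exact counting interval of 8.52 to 2000, and was called (edgeR adjusted p = 0.0037). It passed the filter through its vesicle libraries alone. H2-Oa and H2-Ob, which form the H2-DM inhibitor H2-O, had 5 and 5 counts summed over PBS and 20 and 12 summed over vesicles, and were not tested.

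T cell genes were near the limit of counting. Ctla4, the inhibitory receptor for Cd80 and Cd86, had 0 counts in each PBS library and 12, 15 and 2 with vesicles. Cd3d, a T cell receptor subunit, had 1, 0 and 1 counts and then 25, 11 and 3, a ratio of 19.8 with a 95% exact counting interval of 5.12 to 169. Cd28 had 1 count in the PBS group and 8 in the vesicle group, all 8 in library 1. Cd8a had 26 counts summed over PBS and 26 over vesicles, a ratio of 1.01 (95% exact counting interval 0.566 to 1.82). For Cd4, the class II co-receptor, these sums were 5 and 12, a ratio of 2.44 (0.799 to 8.82). Cd3e, Cd3g and Trac had 4, 3 and 9 counts summed over PBS and 19, 29 and 38 over vesicles. In the edgeR fit 1 of the 9 genes of this list passed the filter, Lag3, and it was not called (log2 fold change -0.36 ± 0.24, adjusted p = 0.35). With no low-count filter edgeR called 3 of the 9 higher (Ctla4, Cd3d and Cd3g), and Ctla4 and Cd3d were called by DESeq2, and by edgeR without vesicle library 3. These genes had 0 to 3 counts in each PBS library and their highest counts in vesicle libraries 1 and 2, so where a filter was used they were tested only through those libraries, and the calls support nothing further.

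In the pericyte-labelled cells the pattern was narrower. Of the 9 genes, 6 passed the filter, and 2 of these, Cd74 and Cd80, were called higher with vesicles and 0 lower. Of 16975 genes tested, 19.8% were called, 10.9% higher and 8.9% lower. Groups did not overlap in 33.8% of them, and in 17.4% all vesicle libraries were above all PBS libraries. Across the 6 genes tested the median log2 fold change was 0.20, against 0.00 over all genes. Without TMM scaling 1512 genes were called higher and 2049 lower, and with upper-quartile scaling 1558 and 1955, against 1855 and 1510 here, and Cd74 and Cd80 were the members called under each of these scalings.

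Cd74 was at 0.752, 0.594 and 0.728 CPM with PBS and at 2.18, 1.97 and 2.75 CPM with vesicles. The groups lay well apart, and the log2 fold change was 1.72 ± 0.32 (SE), with an edgeR adjusted p of 0.00042. Cd80 was at 14.3, 11.2 and 11.8 CPM with PBS and at 19.9, 16.5 and 17.0 CPM with vesicles. Its groups did not overlap, and the log2 fold change was 0.52 ± 0.12 (SE), with an edgeR adjusted p of 0.0025. Per kilobase, Cd80 was the highest of the 9 genes in these cells, at 3.36 CPM per kilobase with PBS and 4.81 with vesicles, while Cd74, which led in the retina, was at 0.412 and 1.37.

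The class II chains did not follow Cd74 there. H2-Aa had 1, 0 and 1 counts in the PBS libraries and 0, 1 and 0 with vesicles, so both groups were under the floor and no fold is given. H2-Ab1 was at 4.90, 3.21 and 5.86 CPM with PBS and at 4.62, 5.09 and 4.36 CPM with vesicles. These groups overlapped, with a log2 fold change of 0.01 ± 0.20 (SE) and an edgeR adjusted p of 0.988. H2-Eb1 was at 2.18, 2.26 and 3.27 CPM with PBS and at 2.89, 3.36 and 3.12 CPM with vesicles, and its groups overlapped too (0.28 ± 0.23, edgeR adjusted p = 0.464). The beta chains were thus counted in libraries in which the alpha chain H2-Aa was nearly at 0. Ciita had 4, 10 and 11 counts in the PBS libraries and 4, 5 and 5 with vesicles and was not tested, and its ratio of vesicle to PBS counts was 0.571, with a 95% exact counting interval of 0.274 to 1.14.

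H2-DMa was the second highest of the 9 per kilobase in these cells. Its values of 8.16, 7.96 and 8.50 CPM with PBS overlapped those of 8.17, 7.79 and 6.57 CPM with vesicles (log2 fold change -0.13 ± 0.13, edgeR adjusted p = 0.595). H2-DMb1 averaged 0.876 ± 0.159 CPM in PBS libraries and 0.951 ± 0.293 CPM in vesicle libraries (SD, n = 3 each), and its groups overlapped (0.12 ± 0.41, edgeR adjusted p = 0.891). Cd86 had 2, 2 and 2 counts in the PBS libraries and 41, 8 and 11 with vesicles. Every vesicle library was above every PBS library, but library 1 held most of the counts. Cd86 did not pass the filter, and its ratio of summed counts was 10.2, with a 95% exact counting interval of 4.42 to 28.9 that covers counting error only. Fitted with no low-count filter its log2 fold change was 3.30 ± 0.90 (SE), with an edgeR adjusted p of 0.0033, and it did not pass the filter without vesicle library 1 or without vesicle library 3.

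**Figure D3:**
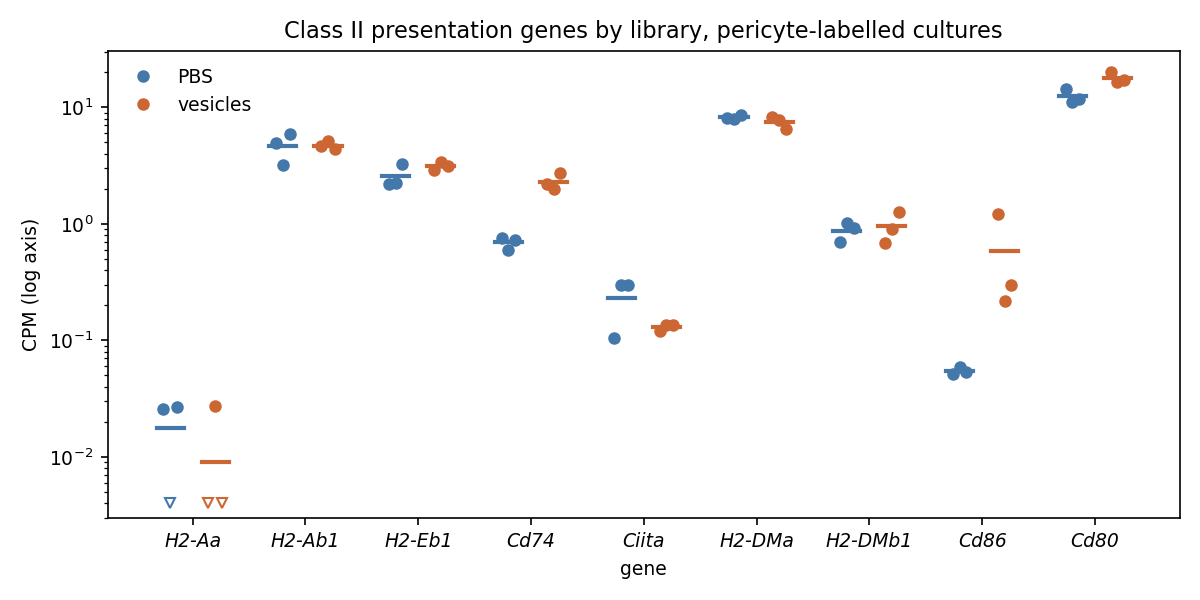
Level of the 9 genes in each pericyte-labelled library, in CPM on a log axis, with PBS in blue and vesicles in orange; points are libraries, bars are means of 3, and open triangles at the bottom are libraries with 0 counts. Cd74, Cd86 and Cd80 have all vesicle points above all PBS points, H2-Aa is at 0 or 1 count, and the points of the other 5 genes overlap.

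Ptprc in these libraries had 2, 13 and 12 counts in the PBS libraries and 41, 39 and 41 with vesicles (log2 fold change 2.16 ± 0.56, edgeR adjusted p = 0.0085), and passed the filter through its vesicle libraries alone. Of 10 myeloid markers, 7 were tested and 3 were called higher (Cd14, Ptprc and Adgre1), and the Ptprc call adds no support to that count. The count was 2 of 8 without PBS library 1 or PBS library 3 and 2 of 7 without vesicle library 2. Without vesicle library 3 it was 5 of 8. The summed level of the 10 ran from 96.8 to 101 CPM with PBS and from 129 to 186 CPM with vesicles, with Ccr2 at 0 in all 6 libraries. Of 12 dendritic cell genes, 5 were tested and Irf8 and Batf3 were called higher, and Ccl22, Ccr7, Cd209a and Clec9a were at 0 in all 6 libraries. The summed dendritic level was 1354 to 1470 CPM with PBS and 1443 to 1777 CPM with vesicles, nearly all of it Cd24a, which was not called (0.16 ± 0.07, edgeR adjusted p = 0.13). Without Cd24a the sum was 5.94 to 7.56 CPM with PBS and 10.6 to 10.8 CPM with vesicles. None of 7 B cell genes was tested, with a summed level of 0.178 to 0.648 CPM with PBS and 0.902 to 1.25 CPM with vesicles, and Ms4a1 at 0. Of 6 tested oligodendrocyte-lineage genes, 4 were called lower (Olig1, Pdgfra, Cnp and Olig2) and 0 higher, and the list of 11 summed to 546.5 to 566 CPM with PBS and 403 to 460.4 CPM with vesicles. The part of these cells in the values of Cd74, Cd80 and Cd86 was not tested.

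Genes of the interferon-gamma route were called higher in part in each setting. In the pericyte-labelled cells 6 of 8 tested genes were called higher and 0 lower, with a median log2 fold change of 0.96 over the 8. Among those with the smallest p were Irf1 (2.20 ± 0.07, edgeR adjusted p = 5.5e-16), Ifngr1 (1.00 ± 0.06, 9.9e-11) and Ifngr2 (0.93 ± 0.06, 5.3e-10), a transcription factor and the receptor chains. Irf1 was at 25.3, 25.7 and 23.2 CPM with PBS and at 110, 118 and 112 CPM with vesicles in those cells, with no overlap. Jak1 and Usf1 were not called (0.01 ± 0.05 and 0.03 ± 0.06, edgeR adjusted p = 0.91 and 0.83). Ciita, which Irf1 induces elsewhere, was between 4 and 11 counts a library there. In the retina 5 of 8 tested genes were called higher and 0 lower (3 of 8 without the library richest in lens crystallins in each group), with a median of 0.68. There Irf1 had a log2 fold change of 1.73 ± 0.17 (edgeR adjusted p = 0.00025), Jak2 0.64 ± 0.12 (0.0059) and Ifngr2 0.71 ± 0.15 (0.011). Socs1, also called, passed the filter through its vesicle libraries alone. Ifngr1 was not called (0.19 ± 0.12, edgeR adjusted p = 0.31), nor were Jak1 (0.01 ± 0.08, 0.97) and Usf1 (0.00 ± 0.12, 0.997). Ifng itself had 2 counts in each retina group, and 1 with PBS and 0 with vesicles in the pericyte-labelled ones.

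Of 9 other costimulators and checkpoint ligands, 5 were tested in the pericyte-labelled cells and 6 in the retina. In the pericyte-labelled cells all 5 tested were called higher, with a median log2 fold change of 3.06. They were the adhesion ligand Icam1 (3.06 ± 0.09, edgeR adjusted p = 1.5e-16), the PD-1 ligand Cd274 (3.75 ± 0.18, 1.3e-12), Icosl (2.77 ± 0.15, 1.3e-11), Cd40 (3.17 ± 0.27, 1.8e-08) and Tnfsf9 (0.98 ± 0.20, 0.0013). Cd40 was at 0.726, 0.713 and 0.351 CPM with PBS and at 5.72, 5.85 and 4.60 CPM with vesicles. Cd48 was not tested, with 24 counts in the summed PBS group against 22 in the other. In the retina 5 of 6 tested were called higher: Icam1 (4.62 ± 0.35, edgeR adjusted p = 8.5e-05), Cd274 (1.95 ± 0.24, 0.0008), Icosl (2.46 ± 0.36, 0.0019), Cd48 (1.71 ± 0.29, 0.004) and Cd40 (2.79 ± 0.58, 0.011). Icam1 and Cd40 passed the filter there through their vesicle libraries alone, so the count and these sizes are descriptions only. Tnfsf9 was not called (-0.09 ± 0.45, edgeR adjusted p = 0.92). Cd70 had 18 counts summed over PBS and 9 over vesicles, Tnfsf4 had 1 and 0, and Pdcd1lg2 had 3 and 23, and these were not tested. All 5 tested members of this list in the pericyte-labelled cells had larger log2 fold changes there than Cd80, and in the retina only Icam1 did. In the pericyte-labelled cells the processing, promoter factor and turnover lists held 1 called gene each: Sppl2a (0.25 ± 0.06, edgeR adjusted p = 0.0041), a protease of the last invariant chain fragment, Rfx5 (0.55 ± 0.09, 6.9e-05), which binds the X box, and Cd83 (1.87 ± 0.17, 5.2e-08), which slows loss of class II and Cd86 from the surface. H2-DMb2, the 1 tested gene among the other class II chains, was not called (0.77 ± 0.63, edgeR adjusted p = 0.474), and passed the filter through its vesicle libraries alone.

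**Figure D4:**
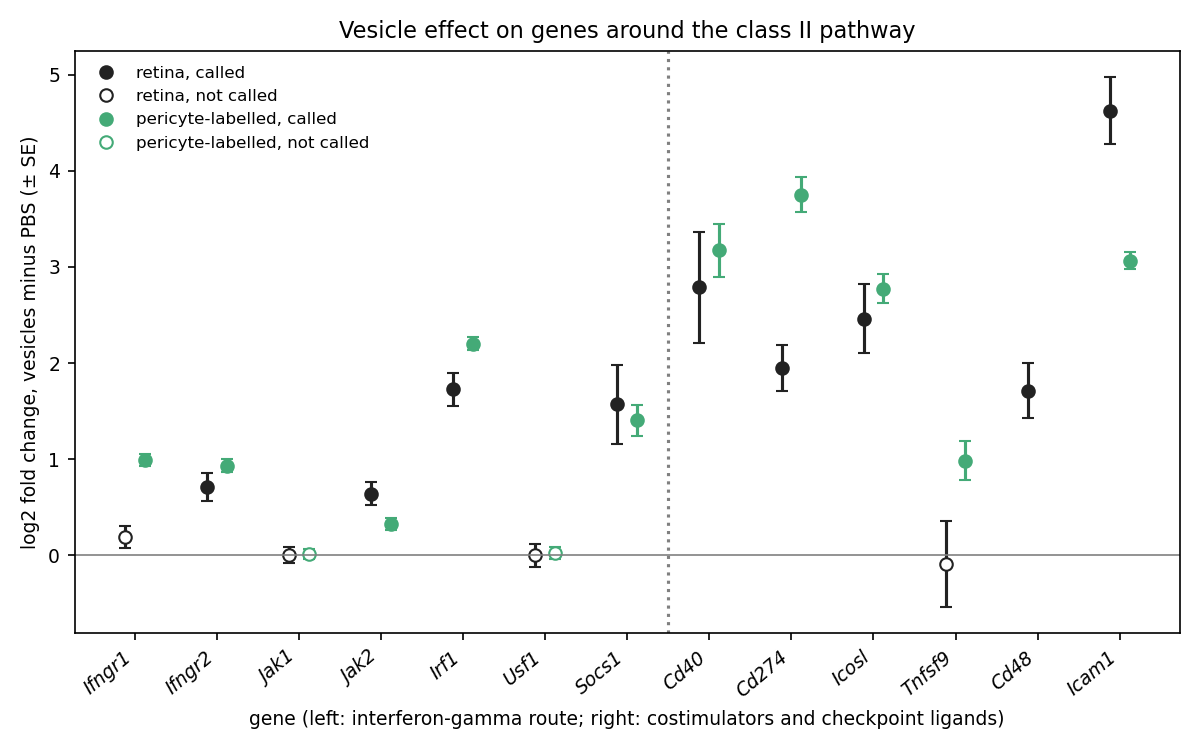
Log2 fold change, vesicles minus PBS, of genes of the interferon-gamma route, 7 of the 8 tested (left of the dotted line) and of the tested costimulators and checkpoint ligands (right) in the retina (black) and in pericyte-labelled cells (green), with SE; filled points were called and open points were not. On the left, Irf1, Jak2, Ifngr2 and Socs1 were called in both, and Jak1 and Usf1 lie at 0 in both. Socs1 passed the filter in the retina through its vesicle libraries alone.

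Whether the vesicle effect itself differed between retina and pericyte-labelled cells was tested with limma on the 13712 genes that passed the filter in both tables, of which 12.2% were called. The settings differ in tissue, injury, time and route at once, so these cannot be told apart. Of the 6 genes, 4 differed, all higher in the retina. The difference in log2 fold change, retina minus pericyte-labelled, was 2.76 for H2-Ab1 (95% interval 1.89 to 3.64, limma adjusted p = 0.00055) and 2.44 for H2-Eb1 (1.70 to 3.18, 0.00041). It was 2.87 for Cd80 (1.83 to 3.91, limma adjusted p = 0.0013) and 1.09 for H2-DMa (0.41 to 1.78, 0.036). For Cd74, which rose in both settings, it was 1.15 (0.06 to 2.25, limma adjusted p = 0.170), and for H2-DMb1 1.56 (0.43 to 2.70, 0.069), so neither was shown to differ. The H2-DMa difference was lost without retina PBS library 2 or 3, retina vesicle library 1 or 2, or pericyte-labelled PBS library 3, with adjusted p up to 0.172. The H2-DMb1 difference passed without pericyte-labelled vesicle library 3 (1.80, adjusted p = 0.045).

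**Figure D5:**
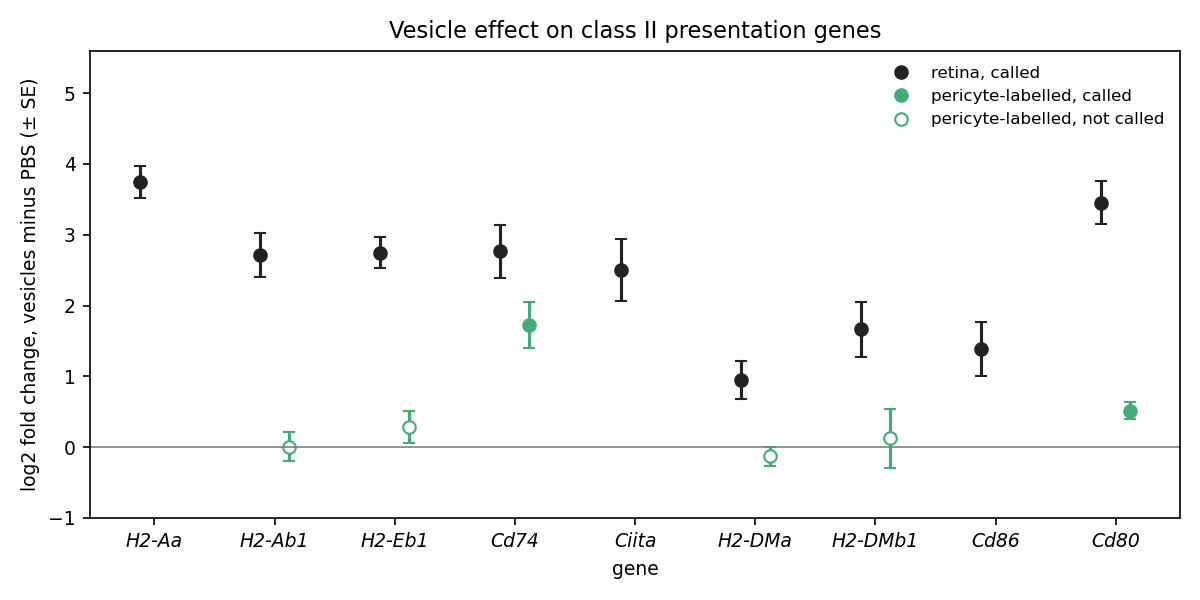
Log2 fold change, vesicles minus PBS, of the 9 genes in the retina (black) and of the 6 tested genes in pericyte-labelled cells (green), with SE; filled points were called at an adjusted p under 0.05 and open points were not. All 9 retina points lie above 0, from 0.95 for H2-DMa to 3.74 for H2-Aa, and of the green points only Cd74 and Cd80 were called.

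The retina genes most like the members were found by the root-mean-square difference of gene-centred log2 CPM over the 6 libraries, among 14503 other genes with a mean of at least 1 CPM. For the mean profile of H2-Aa, H2-Ab1, H2-Eb1 and Cd74 the nearest were Syk at 0.127, Crispld2 at 0.128, Pstpip1 at 0.131, Itga5 at 0.132, Ncf1 at 0.168 and Myo1f at 0.179. Syk encodes a kinase of immune receptors, Pstpip1 a cytoskeletal adaptor of leukocytes, Itga5 the alpha 5 integrin, Ncf1 a subunit of the phagocyte NADPH oxidase and Myo1f a myosin of leukocytes. Syk was at 1.63, 0.850 and 2.16 CPM with PBS and at 14.1, 15.0 and 11.4 CPM with vesicles, with PBS library 2 lowest, as for Cd74. Cd86 was nearest to Akr1b8 at 0.142, Fam167a at 0.18 and Fam111a at 0.186, and Ciita to Tnfaip6 at 0.0693, Fn1 at 0.169 and Map3k8 at 0.192. All these libraries share their groups, so likeness over 6 of them follows the difference between groups as well as the spread within.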

How the data were processed

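RNA of 12 mouse samples was sequenced, per the labels from Trizol extracts and NEBNext Ultra libraries. The authors deposited 1 table of raw gene counts for each sample type. Per the submitters' processing notes, FastQC 0.11.8, HISAT2 2.0.5, featureCounts 1.5.0-p3 and limma were used, and the genome build and the strand setting are not given in the sources used here. The series' design text describes knockdowns that match no sample and was not used. The members and the gene lists were chosen with earlier results of these data known.

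Each table was fitted alone in R 4.3.3 with edgeR 4.0.16 (filterByExpr with a minimum count of 10, TMM, robust quasi-likelihood F test, 2-sided) and Benjamini-Hochberg adjustment over all tested genes, with a call at 0.05. The scripts were tested on simulated data. CPM used TMM-scaled totals. The SE is the absolute log2 fold change divided by the root of F. The difference between tables was fitted with limma 3.58.1 (voom, a weight per table). A count of 3 was 0.180 to 0.196 CPM in a retina library and 0.0778 to 0.0894 CPM in a pericyte-labelled one. No molecular identifiers were stated, reads are then not independent molecules, and the intervals and floors cover only counting error. Between libraries of a group, chi-squared per degree of freedom was at least 10.5 (retina) and 5.87 (pericyte-labelled), so no library was a copy. Levels were not compared across tables, which list different genes. Alternatives were other scalings, no filter, DESeq2 1.42.0, a non-robust fit, a replicate block and fits without single libraries or the lens-rich ones.

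Named were all members, up to 4 called genes of each list by p, list genes needed to identify a count, and the nearest genes by likeness. List genes named as not called or not tested, and those whose libraries are given as examples, were chosen after their values were seen. So were Socs1, Tnfsf9, Cd48 or Cd40 beyond the 4, and the marker genes of the label checks. Some genes of the lists are counted but not reported here by name.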

Additional observations from a re-analysis of the deposited data

Results flagged for a closer look

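The vesicle effects on 4 genes were picked out because they differed between the retina and the pericyte-labelled cells in the joint limma test, which adjusts over all 13712 genes fitted. The difference in log2 fold change, retina minus pericyte-labelled, was 2.76 for H2-Ab1, 2.44 for H2-Eb1, 1.09 for H2-DMa and 2.87 for Cd80. H2-Ab1 and H2-Eb1 were called only in the retina fit, H2-DMa had log2 fold changes of 0.95 in the retina and -0.13 in the other cells, and Cd80 was called in both. Groups of 3 libraries were too small for a check for single outlying libraries.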

How the results depend on the processing

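The number of retina genes called was 2449, and it ran from 1328 to 2909 when single libraries were left out and was 1420 without the library richest in lens crystallins in each group. Of the 9 members 9 were called, 6 to 9 when single libraries were left out and 5 without those lens-rich libraries. With no low-count filter 8 were called, with H2-DMa at an adjusted p of 0.053. Across 14 alternatives the largest adjusted p was 0.0032 for H2-Aa, 0.0178 for H2-Ab1, 0.0024 for H2-Eb1 and 0.0046 for Cd80. No member changed direction in the retina. For Ciita the largest adjusted p was 0.041. Ciita passed the filter of the main fit through its vesicle libraries alone, so its calls add no support to these counts. In the pericyte-labelled libraries 3365 genes were called, between 2412 and 3561 over 13 alternatives, and Cd74 and Cd80 were called in each of them, as were 2 or 3 members in all. The third was Cd86, with no low-count filter or in fits where it passed the filter. Where it passed, it did so through its vesicle libraries alone, so those calls add no support. The uncalled H2-Ab1 and H2-DMb1 took either sign. With the replicate block the pericyte-labelled libraries gave 3287 calls and Cd74 and Cd80 as the members called. Same-numbered libraries there had correlations of 0.0183, 0.0275 and -0.0238, and differently numbered ones had correlations from -0.0576 to 0.038. Whether same-numbered libraries shared a culture or a day was not tested. No paired analysis of the retina was possible because its columns carry no number of the labels. Of the 6 differences between the settings, 4 were called, and 3 to 5 when single libraries were left out. The settings without single libraries for members called, differences and ratios, and the fits of lists, were chosen after seeing the data. Low counts limit how finely Ciita in both settings, Cd86 in the pericyte-labelled cells and the T cell genes can be compared.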
